A study of Homo sapiens with 6 samples.

Results

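The ZBTB transcription factors were followed in Kasumi-1, a human acute myeloid leukaemia line with the RUNX1::RUNX1T1 fusion of t(8;21), after silencing of PHF19, an accessory subunit of the histone methyltransferase complex PRC2. Every row of the deposited count table whose symbol is ZBTB followed by a number and at most 1 letter was taken, which gave 41 genes of 26410. There were 3 control libraries (scrambled shRNA per the treatment protocol, although the treatment label reads WT) and 3 shPHF19 libraries, for which PHF19 was silenced with a lentiviral vector that also carries GFP and puromycin resistance. In both groups selection with 2 µg/ml puromycin began 48 h after transfection and lasted at least 24 h. The sources do not give the number of PHF19 hairpins, and untreated cells are not among these samples. Nothing in the labels ties a replicate to a culture of its own, so the p-values reflect only how these libraries vary, possibly for technical reasons.

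ZBTB proteins carry an N-terminal BTB (POZ) domain, through which they pair with themselves and each other and recruit corepressors such as NCOR and SIN3A with histone deacetylases, and C-terminal C2H2 zinc fingers that bind DNA. Most are described as sequence-specific repressors. Several set blood lineages: ZBTB16 (PLZF) is fused to RARA in a variant promyelocytic leukaemia, ZBTB7B (ThPOK) and ZBTB7A (LRF) act in lymphocyte and erythroid fate, ZBTB46 marks classical dendritic cells, and ZBTB7A is recurrently mutated in t(8;21) leukaemia.

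Transcripts of PHF19, the target of the hairpin, stood at 168, 199 and 189 CPM (counts scaled to library size with TMM factors) in control replicates 1 to 3 and at 41.1, 36.9 and 33.0 CPM in shPHF19 replicates 1 to 3. The groups did not overlap (log2 fold change -2.32, SE 0.0975; adjusted p = 3.55e-25 by edgeR's quasi-likelihood test with Benjamini-Hochberg adjustment). Libraries held 14229878 to 16615143 counts, at which 3 counts correspond to 0.181 to 0.211 CPM. The Kasumi-1 labels were checked on fixed markers: KIT (2939 and 3291 CPM in control and shPHF19), MPO (4278 and 8394 CPM), CD34 (357 and 830 CPM) and RUNX1T1, the fusion partner gene (188 and 146 CPM), were present in both groups (means, n = 3). Of the 8 markers listed CD38 was nearly absent, with 0, 6 and 0 counts in control and 4, 6 and 2 counts in shPHF19 replicates 1 to 3. Summed over 18 monocyte and macrophage markers the level was 220 to 232 CPM in control and 64.5 to 70.1 CPM in shPHF19 libraries, with 8 of 11 tested members lower and 1 higher. Summed over 16 granulocyte markers it was 4416 to 4858 and 8901 to 10335 CPM, with 8 of 9 tested members higher and none lower. MPO alone made up most of these sums, and 7 of the 16, among them LTF, CAMP, LCN2, MMP8 and MMP9, had too few counts to be tested. Summed over 15 lymphoid, erythroid and epithelial markers it was 144 to 157 and 181 to 192 CPM, with 2 of 9 tested members higher (CD3D and EPCAM) and 2 lower (CD3E and PAX5). The shares over all tested genes were 30.9% called lower and 29.4% called higher. The part of these marker shifts in the ZBTB results was not tested. Fewer cells expressing a gene cannot be told apart from less RNA per cell in bulk libraries.

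Most ZBTB genes that changed were lower after PHF19 silencing. The expression filter kept 38 of the 41 genes. The edgeR fit called 20 of them lower and 4 higher at an adjusted p under 0.05, and left 14 without a call. Among all 13014 genes tested 60.2% were called, 30.9% lower and 29.4% higher, so a lower call was frequent in the background too. All 7 ZBTB genes past a 2-fold change were lower (ZBTB20, ZBTB46, ZBTB38, ZBTB16, ZBTB42, ZBTB2 and ZBTB21), beside 10.9% of all tested genes called at least 2-fold lower and 5.72% at least 2-fold higher (16.6% in either direction). The median log2 fold change was -0.30 over the 38 and -0.03 over all tested genes. Values of the groups did not overlap for 18 genes in the lower and 4 in the higher direction, against 32.6% and 30.9% of all tested genes (63.5% in either direction). A gene with few counts passed the filter mainly or only through the group in which it was higher. This touches ZBTB16 most, which had 9, 7 and 9 counts in shPHF19 replicates 1 to 3, and also ZBTB20 and ZBTB38. With library totals as the only scaling the median of all genes moved from -0.03 to -0.24, and 27 ZBTB genes were lower and 2 higher, beside 43.2% and 19.9% of all genes. The ZBTB median was then -0.51. Its distance from the median of all genes was -0.27 under either scaling, but scaling moves all genes nearly alike and cannot test it. Under other settings the distance ran from -0.20 (without shPHF19 replicate 3) to -0.31 (limma-voom with length and GC trends removed).

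**Figure D1:**
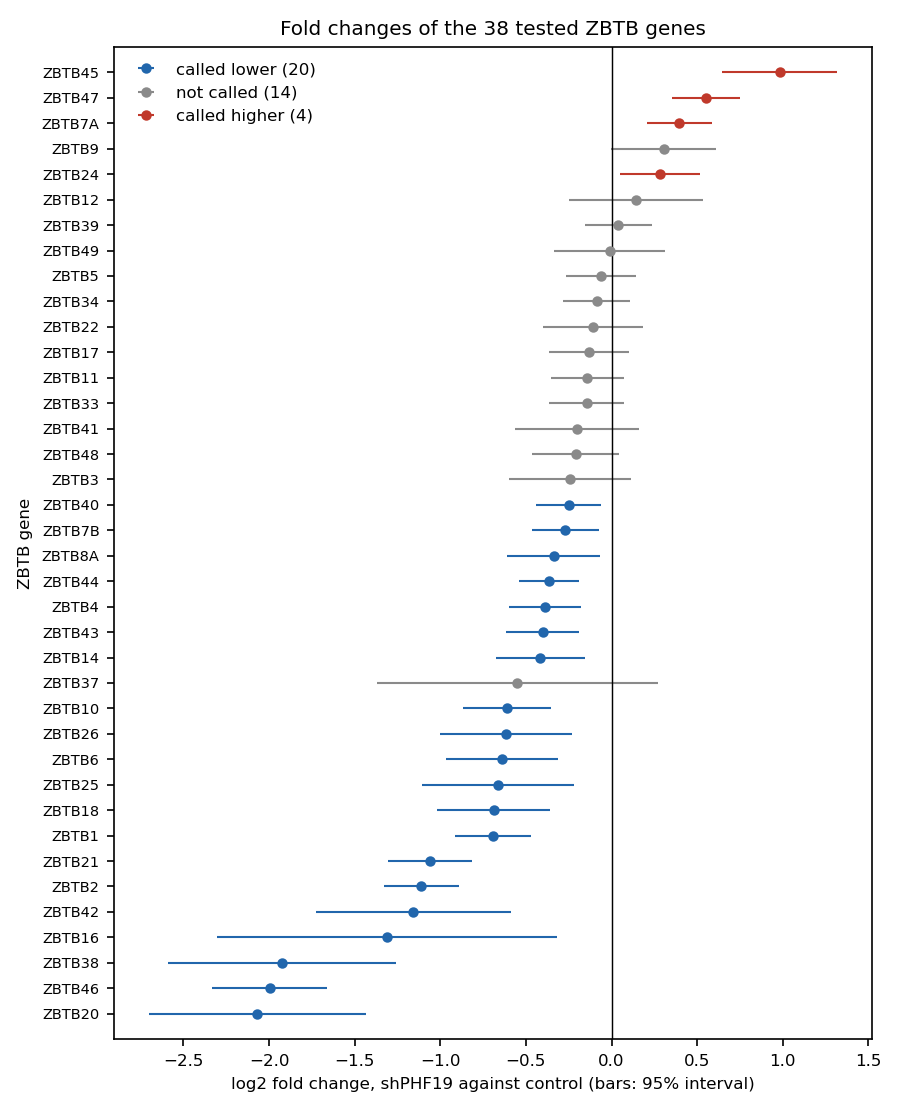
Log2 fold change (x axis, shPHF19 against control, bars are 95% intervals of the edgeR fit) for each of the 38 tested ZBTB genes, ordered by value and coloured by call. Of these genes 20 were called lower, 4 higher and 14 were not called, with values from -2.07 (ZBTB20) to 0.98 (ZBTB45).

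Summed over all ZBTB genes the level was 1380, 1312 and 1362 CPM in control replicates 1 to 3 and 1141, 1148 and 1147 CPM in the shPHF19 replicates, or 1351 ± 35.1 and 1145 ± 4.21 CPM (SD, n = 3), so shPHF19 cells held 84.7% of the control level (2-sided exact permutation p = 0.1, which is the minimum for 3 against 3). This size depends on the scaling: with library totals only the difference was -385 in place of -206 CPM, and ZBTB genes held 0.140% to 0.148% of all counts in control and 0.105% to 0.108% in shPHF19 libraries. The 20 genes called lower summed to 779 ± 38.9 CPM in control and 538 ± 17.7 CPM in shPHF19 libraries, whereas the 4 called higher summed to 148 ± 6.54 and 205 ± 10.8 CPM (SD, n = 3). The 14 genes without a call held 423 ± 4.27 and 402 ± 16.1 CPM (SD, n = 3).

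The promoter windows below belong to ZBTB46, ZBTB2 and ZBTB21, which fell more than 2-fold and have a single listed start. ZBTB42 also meets both terms, but its window is not printed. Another printed window is that of ZBTB24, which rose and has a single listed start. The last is that of ZBTB1, whose first window overlaps a window of ZBTB25 on the other strand. Each runs from 250 bases before to 50 bases after the start and is printed 5′ to 3′ on the strand of the gene (RefSeq, GRCh38.p14). Capitals mark every match on either strand to the motifs spelled out after the sequences.
ZBTB46, chr20:63831215-63831514, minus strand: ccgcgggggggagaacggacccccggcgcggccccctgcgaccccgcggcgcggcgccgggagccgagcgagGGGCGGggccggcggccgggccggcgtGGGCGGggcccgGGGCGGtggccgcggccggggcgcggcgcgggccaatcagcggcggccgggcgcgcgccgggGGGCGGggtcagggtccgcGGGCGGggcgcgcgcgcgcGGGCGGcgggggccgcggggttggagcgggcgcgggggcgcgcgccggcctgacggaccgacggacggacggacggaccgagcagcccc
ZBTB2, chr6:151391510-151391809, minus strand: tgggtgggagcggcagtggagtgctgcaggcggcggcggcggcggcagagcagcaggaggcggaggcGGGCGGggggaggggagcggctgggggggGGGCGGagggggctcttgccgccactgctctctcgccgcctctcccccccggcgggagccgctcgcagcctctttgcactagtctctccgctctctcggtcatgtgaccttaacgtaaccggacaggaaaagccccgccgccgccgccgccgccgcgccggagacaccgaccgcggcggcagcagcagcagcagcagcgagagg
ZBTB21, chr21:42010311-42010610, minus strand: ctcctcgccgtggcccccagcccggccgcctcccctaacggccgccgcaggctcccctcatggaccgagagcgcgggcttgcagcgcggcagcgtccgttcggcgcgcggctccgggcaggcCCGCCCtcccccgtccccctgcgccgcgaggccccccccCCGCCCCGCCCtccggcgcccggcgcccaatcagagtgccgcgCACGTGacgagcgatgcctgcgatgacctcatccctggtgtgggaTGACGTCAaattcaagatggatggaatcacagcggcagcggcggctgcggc
ZBTB24, chr6:109483170-109483469, minus strand: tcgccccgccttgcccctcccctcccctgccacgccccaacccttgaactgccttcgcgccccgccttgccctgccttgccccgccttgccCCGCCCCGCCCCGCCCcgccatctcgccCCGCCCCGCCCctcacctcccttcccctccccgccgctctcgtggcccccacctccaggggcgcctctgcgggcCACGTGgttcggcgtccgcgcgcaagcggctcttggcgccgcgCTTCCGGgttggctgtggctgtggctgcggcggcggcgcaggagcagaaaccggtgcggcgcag
ZBTB1, chr14:64503637-64503936, plus strand: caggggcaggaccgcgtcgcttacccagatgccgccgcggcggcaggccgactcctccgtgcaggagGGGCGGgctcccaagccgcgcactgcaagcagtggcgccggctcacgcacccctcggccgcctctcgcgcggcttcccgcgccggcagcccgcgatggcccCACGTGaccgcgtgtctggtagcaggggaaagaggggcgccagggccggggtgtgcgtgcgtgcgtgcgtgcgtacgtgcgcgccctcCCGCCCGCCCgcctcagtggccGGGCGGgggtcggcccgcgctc

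The motifs searched were the E-box CACGTG, the GC box GGGCGG, the ETS core CCGGAAG, the cyclic AMP response element TGACGTCA and for Kaiso (ZBTB33) the sequence TCCTGCNA. The GC box was in 41 of 68 ZBTB windows (60.3%) and in 45.0% of all 35116 listed windows, and in at least 1 window of all 4 genes that rose, of 15 of 16 that fell and of 11 of 12 without a call. The ETS core was in 20.6% of ZBTB windows and 10.3% of all windows. The E-box was in 8 ZBTB windows (11.8%, beside 7.26% of all), among them those of ZBTB21, ZBTB24 and ZBTB1 printed above. The response element was in 4 ZBTB windows (5.88%, beside 1.85%). The Kaiso sequence TCCTGCNA was in 5 ZBTB windows (7.35%, beside 4.69%), and the Kaiso palindrome was in 0, beside 0.42% of all windows. The ZBTB46 window is the most CpG-rich of those printed, with 66 CpG and a GC content of 89.7%, beside a median of 62.3% over ZBTB windows and 58.7% over all windows. Windows of a gene with several starts, and those of ZBTB1 and ZBTB25, can overlap and are not independent, and GC box matches can overlap each other. Of the 41 genes 35 are in the promoter table (RefSeq, GRCh38.p14), and ZBTB6, ZBTB10, ZBTB16, ZBTB17, ZBTB40 and ZBTB41 are named only.

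Among ZBTB genes known from blood lineages, the dendritic cell factor ZBTB46 and the lymphoid factors ZBTB16, ZBTB20 and ZBTB1 were lower, whereas ZBTB7A was higher. Of 10 genes listed as linked to blood lineages 9 were tested, of which 5 fell, 2 rose and 2 did not pass, beside 30.9% lower and 29.4% higher among all tested genes.

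ZBTB46 (chromosome 20, 63743666 to 63831244, minus strand; GRCh38, GENCODE 29, as for all positions of genes) had 19.1, 22.9 and 20.8 CPM in control and 4.83, 5.64 and 5.23 CPM in shPHF19 replicates 1 to 3. The 3 shPHF19 values lay close together and far under the lowest control. The gene was 3.99-fold lower (log2 fold change -2.00, SE 0.166; edgeR adjusted p = 1.54e-14). In the same libraries the monocyte and macrophage markers given above also fell, and their part in the ZBTB46 result was not tested.

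ZBTB20 (chromosome 3, 114314501 to 115147271, minus strand), a repressor known for silencing alpha-fetoprotein in liver and for a role in plasma cells, had 7.63, 3.95 and 6.94 CPM in control and 1.86, 0.648 and 1.93 CPM in shPHF19 replicates 1 to 3. Control replicate 2 was the lowest control yet still above all shPHF19 libraries. ZBTB20 was 4.20-fold lower (-2.07, SE 0.315; edgeR adjusted p = 1.99e-07).

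ZBTB16 was near the limit of detection, at 19, 20 and 31 counts in control and 9, 7 and 9 counts in shPHF19 replicates 1 to 3. The groups did not overlap, and the ratio of control to shPHF19 was 2.50 with an exact (Clopper-Pearson) 95% interval of 1.56 to 4.12 that covers counting error only. The log2 fold change was -1.31 (edgeR adjusted p = 0.0197). The call was lost without control replicate 3 (-1.01, edgeR adjusted p = 0.15), without shPHF19 replicate 2 (-1.15, edgeR adjusted p = 0.0853) and with DESeq2 (-1.30, adjusted p = 0.062), in a range of adjusted p from 0.00721 to 0.15 over 15 alternatives.

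ZBTB1, needed for lymphoid development and a reported activator of ATF4, fell from 54.6 ± 6.99 to 33.8 ± 1.11 CPM (SD, n = 3; -0.69, edgeR adjusted p = 4.23e-07). ZBTB7B, the CD4 T cell lineage factor, fell slightly from 80.5 ± 8.51 to 66.8 ± 3.82 CPM (SD, n = 3; -0.27, edgeR adjusted p = 0.0148). Omitting control replicate 2 ended the ZBTB7B call (-0.21, edgeR adjusted p = 0.098), as did omitting control replicate 3 (-0.23, 0.0899) or shPHF19 replicate 3 (-0.22, 0.0682), and its adjusted p ran from 6.52e-05 to 0.098 over the alternatives.

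ZBTB7A (chromosome 19, 4044364 to 4066945, minus strand), the silencer of fetal globin genes, moved the other way. It had 59.5, 70.0 and 68.3 CPM in control and 88.3, 90.6 and 81.4 CPM in shPHF19 replicates 1 to 3, with no overlap (1.32-fold higher; log2 fold change 0.40, SE 0.0947; edgeR adjusted p = 0.000348). With library totals only it was no longer called (0.19, edgeR adjusted p = 0.0758; from 2.68e-05 over the alternatives). The ratio of ZBTB7A to ZBTB7B within a library does not depend on scaling, and it was 0.843, 0.815 and 0.804 in control and 1.28, 1.31 and 1.30 in shPHF19 replicates 1 to 3. The groups stood well apart (0.821 ± 0.0197 and 1.30 ± 0.0146, SD, n = 3; 2-sided exact permutation p = 0.1, the minimum), on ratios chosen after the values were seen.

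ZBTB24, which is mutated in ICF syndrome and activates CDCA7, had 27.7, 25.9 and 26.7 CPM in control and 31.3, 34.6 and 31.6 CPM in shPHF19 replicates 1 to 3. The groups did not overlap, but the rise was small (0.28, SE 0.117; edgeR adjusted p = 0.0344). Omitting control replicate 2 ended the ZBTB24 call (0.27, edgeR adjusted p = 0.0737), and so did omitting control replicate 3 (0.28, 0.0758) or shPHF19 replicate 2 (0.24, 0.157). It was also lost with library totals (0.08, 0.583), with upper-quartile factors (0.18, 0.183) and with the replicate block (0.28, 0.0757), and its adjusted p was as low as 0.000115.

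ZBTB17 (MIZ-1), the zinc finger partner through which MYC represses CDKN1A, did not pass. It had 34.5, 41.8 and 33.1 CPM in control and 36.4, 31.7 and 31.8 CPM in shPHF19 replicates 1 to 3. The groups overlapped, and the log2 fold change was -0.13 with a 95% interval of -0.37 to 0.10 (edgeR adjusted p = 0.33). ZBTB11, needed for granulocyte development in zebrafish, did not pass either (-0.14, 95% interval -0.36 to 0.07). Its antisense neighbour ZBTB11-AS1, which is not a member and shares 891 exon bases with it on the opposite strand, rose from a mean of 3.10 to 6.47 CPM (1.06, edgeR adjusted p = 0.000155). The sources used here do not say whether counting used strand, and without it reads from the shared stretch, 12.0% of the ZBTB11 exon bases, cannot be assigned to either gene.

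**Figure D2:**
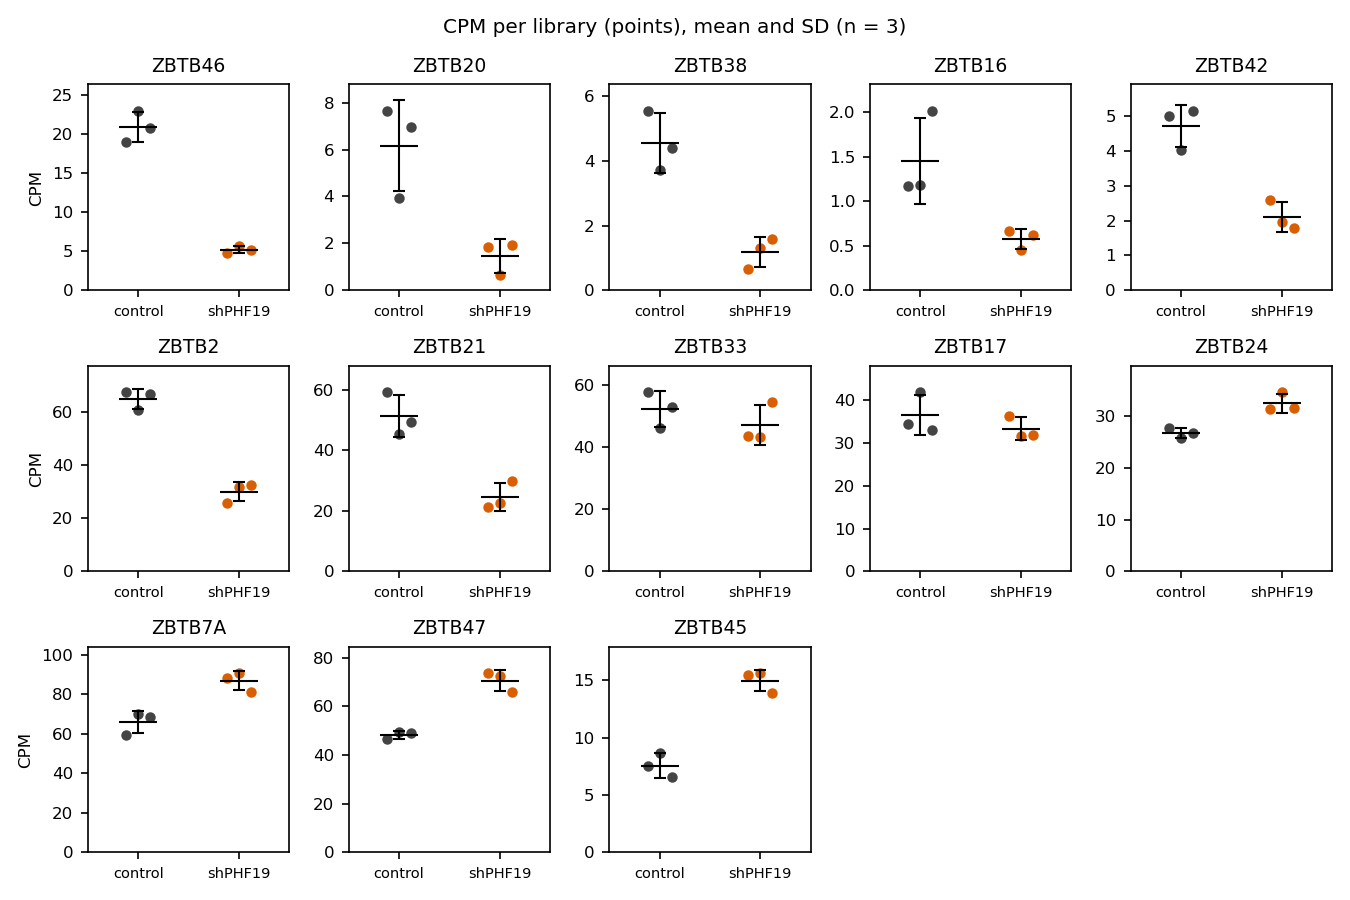
CPM (y axis, from 0) in each of the 3 control and 3 shPHF19 libraries for 13 ZBTB genes, as points with the mean and SD of each group. The 7 genes past a 2-fold change (ZBTB46 to ZBTB21 in reading order) have no shPHF19 library as high as any control library, ZBTB33 and ZBTB17 overlap, and ZBTB24, ZBTB7A, ZBTB47 and ZBTB45 have all shPHF19 libraries above all control libraries.

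Of the 3 ZBTB proteins that bind methylated CpG, ZBTB38 and ZBTB4 fell and ZBTB33 did not pass. Lower calls made up 52.6% of tested ZBTB genes and 30.9% of all tested genes. ZBTB38 (chromosome 3, 141324213 to 141449792, plus strand), also a reported repressor of the replication factor gene MCM10, had 5.53, 3.71 and 4.41 CPM in control and 0.668, 1.30 and 1.58 CPM in shPHF19 replicates 1 to 3. All shPHF19 values were under the lowest control, and the gene was 3.80-fold lower (-1.93, SE 0.331; edgeR adjusted p = 2.21e-06). ZBTB4 fell from 55.6 ± 2.60 to 42.5 ± 4.63 CPM (SD, n = 3; -0.39, edgeR adjusted p = 0.00131).

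ZBTB33 (Kaiso), the founding member of this subgroup, had 57.7, 46.3 and 52.9 CPM in control and 43.7, 43.5 and 54.7 CPM in shPHF19 replicates 1 to 3. The groups overlapped, and the log2 fold change was -0.14 with a 95% interval of -0.36 to 0.08 (edgeR adjusted p = 0.256). Its sign depended on the processing: it was called lower with library totals (-0.35, edgeR adjusted p = 0.00743) and under upper-quartile scaling (-0.25, 0.046), and stood at 0.13 (limma-voom adjusted p = 0.143) once trends with transcript length and GC content were removed (0.00743 to 0.653 over the alternatives).

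ZBTB2 and ZBTB21 had the highest control levels per kilobase of exon among the genes that fell more than 2-fold. ZBTB2 (chromosome 6, 151364117 to 151391548, minus strand), a reported repressor of p53 pathway genes, had 67.2, 60.5 and 66.7 CPM in control and 25.7, 31.8 and 32.4 CPM in shPHF19 replicates 1 to 3. The gap between the groups was several times the spread within either, and ZBTB2 was 2.16-fold lower (-1.11, SE 0.109; edgeR adjusted p = 2.44e-12). ZBTB21 (chromosome 21, 41986831 to 42010387, minus strand) had 59.2, 45.4 and 49.5 CPM in control and 21.2, 22.7 and 29.9 CPM in shPHF19 replicates 1 to 3. It was lower in every shPHF19 library (2.08-fold lower; -1.06, SE 0.123; edgeR adjusted p = 2.92e-10).

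ZBTB42, a close relative of the neuronal repressor ZBTB18, had 4.98, 4.01 and 5.12 CPM in control and 2.60, 1.94 and 1.79 CPM in shPHF19 replicates 1 to 3. The groups did not overlap (2.23-fold lower; -1.16, SE 0.283; edgeR adjusted p = 0.00046). ZBTB18 itself fell from 16.0 ± 2.90 to 9.90 ± 1.12 CPM (SD, n = 3; -0.69, edgeR adjusted p = 0.000318).

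The other 9 genes called lower had log2 fold changes from -0.66 to -0.25. ZBTB25 (-0.66), a reported repressor of NFAT signalling, ZBTB6 (-0.64), ZBTB26 (-0.62) and ZBTB10 (-0.61), a reported repressor of SP factors, lost the most. ZBTB14 (-0.42), a reported repressor at the MYC promoter, ZBTB43 (-0.40), ZBTB44 (-0.36), ZBTB8A (-0.34) and ZBTB40 (-0.25) lost less. Values of ZBTB25, ZBTB6 and ZBTB14 overlapped between groups although the genes were called.

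Several of these smaller falls were not stable. ZBTB8A lost its call in 7 of 15 alternatives, among them the omission of control replicate 1 (-0.32, edgeR adjusted p = 0.0593), 2 (-0.33, 0.0614) or 3 (-0.34, 0.0581) or of shPHF19 replicate 1 (-0.21, 0.206), over a range of adjusted p from 0.000809 to 0.401. ZBTB40 lost it without control replicate 3 (-0.17, edgeR adjusted p = 0.189), without shPHF19 replicate 3 (-0.21, 0.0711) and with the replicate block (-0.25, 0.062; 7.88e-05 to 0.207 over the alternatives). ZBTB25 lost it without control replicate 1 (-0.41, edgeR adjusted p = 0.146) or shPHF19 replicate 2 (-0.50, 0.0688; 0.00063 to 0.208 over the alternatives). After removal of length and GC trends, ZBTB14 (-0.22, limma-voom adjusted p = 0.128; from 0.000138), ZBTB26 (-0.37, 0.0574; from 0.000401) and ZBTB44 (-0.05, 0.493; from 1.22e-06) were no longer called, nor were ZBTB8A, ZBTB25 and ZBTB40.

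Members that are neighbours in the genome fell by similar amounts in 2 cases. ZBTB1 and ZBTB25 on chromosome 14 are transcribed in opposite directions, their annotated spans overlap by 1502 bases, and their log2 fold changes were -0.69 and -0.66. They share 507 exon bases, so reads from that stretch cannot be assigned without strand. ZBTB6 and ZBTB26, 2235 bases apart on the minus strand of chromosome 9, had log2 fold changes of -0.64 and -0.62. ZBTB34 and ZBTB43, 22454 bases apart on the plus strand of the same chromosome, had -0.09 (not called) and -0.40 (called lower), a difference between the genes that was not tested.

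Apart from ZBTB7A and ZBTB24, the genes that rose were ZBTB45 and ZBTB47. ZBTB45 (chromosome 19, 58513530 to 58538911, minus strand) had 7.50, 8.66 and 6.55 CPM in control and 15.4, 15.6 and 13.9 CPM in shPHF19 replicates 1 to 3. Every shPHF19 library exceeded every control library by a wide margin (1.98-fold higher; 0.98, SE 0.167; edgeR adjusted p = 1.76e-06). ZBTB47 (chromosome 3, 42653684 to 42665854, plus strand) had 46.4, 49.3 and 48.8 CPM in control and 73.5, 72.4 and 65.7 CPM in shPHF19 replicates 1 to 3, again without overlap (1.46-fold higher; 0.55, SE 0.0982; edgeR adjusted p = 4.33e-06). Both kept their call in all 15 alternatives.

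The remaining tested genes without a call had log2 fold changes from -0.55 to 0.30. ZBTB37 (-0.55) was measured at a mean of 2.25 and 1.53 CPM, and its 95% interval ran from -1.37 to 0.27. ZBTB3 (-0.24), the telomere-binding factor ZBTB48 (-0.21), ZBTB41 (-0.20), ZBTB22 (-0.11), ZBTB34 (-0.09), ZBTB5 (-0.06), a reported repressor of CDKN1A, ZBTB49 (-0.01), ZBTB39 (0.04) and ZBTB12 (0.15) had intervals that include 0. For the abundant ZBTB34, ZBTB5 and ZBTB39 the intervals were -0.28 to 0.11, -0.27 to 0.14 and -0.16 to 0.23, so changes of 2-fold lie outside them. With library totals only, ZBTB3 (-0.45, edgeR adjusted p = 0.0249; across alternatives up to 0.514), ZBTB48 (-0.41, 0.0044; up to 0.449), ZBTB34 (-0.29, 0.00917; up to 0.841), ZBTB5 (-0.27, 0.0232; up to 0.983), ZBTB11 (-0.35, 0.0056; up to 0.684) and ZBTB17 (-0.34, 0.0111; up to 0.955) were called lower.

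ZBTB9 (0.30, edgeR adjusted p = 0.0823) was called higher without control replicate 2 (0.52, edgeR adjusted p = 0.00666), without shPHF19 replicate 3 (0.41, 0.0183) and in limma-voom after removal of the length and GC trends (0.34, adjusted p = 0.0409), over a range of adjusted p up to 0.599.

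Of the 41 genes 3 had too few counts to be tested. ZBTB7C had 16, 26 and 7 counts in control and 6, 7 and 3 counts in shPHF19 replicates 1 to 3, a ratio of control to shPHF19 of 2.73 (exact 95% counting interval 1.53 to 5.15). ZBTB32, a lymphocyte repressor, had 6, 11 and 2 counts in control and 9, 12 and 1 counts in shPHF19 replicates, with a ratio of 0.771 (exact 95% counting interval 0.395 to 1.49). ZBTB8B had 0 counts in every library, which allows up to 0.211 CPM in the shallowest one.

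Per kilobase of exon, ZBTB2, ZBTB7B and ZBTB44 had the highest levels in control cells, at 21.0 ± 1.21, 18.7 ± 1.98 and 14.5 ± 1.39 CPM per kb (SD, n = 3). ZBTB2 and ZBTB7B lay within their spread of each other. In shPHF19 cells the order of levels was led by ZBTB47 at 18.7 ± 1.11 CPM per kb, followed by ZBTB7B at 15.5 ± 0.887 and ZBTB7A at 15.2 ± 0.836 CPM per kb, the latter pair within their spread of each other. ZBTB2 stood at 9.69 ± 1.20 CPM per kb there, which moved it from rank 1 to rank 7 of the 41 genes. ZBTB46 went from 3.44 ± 0.318 to 0.860 ± 0.0667 CPM per kb and from rank 26 to rank 32. In control cells ZBTB38, ZBTB16 and ZBTB20 stood at 0.320, 0.228 and 0.194 CPM per kb. These levels divide by the merged exons of all annotated transcripts, which for ZBTB20 come to 31872 bases.

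**Figure D3:**
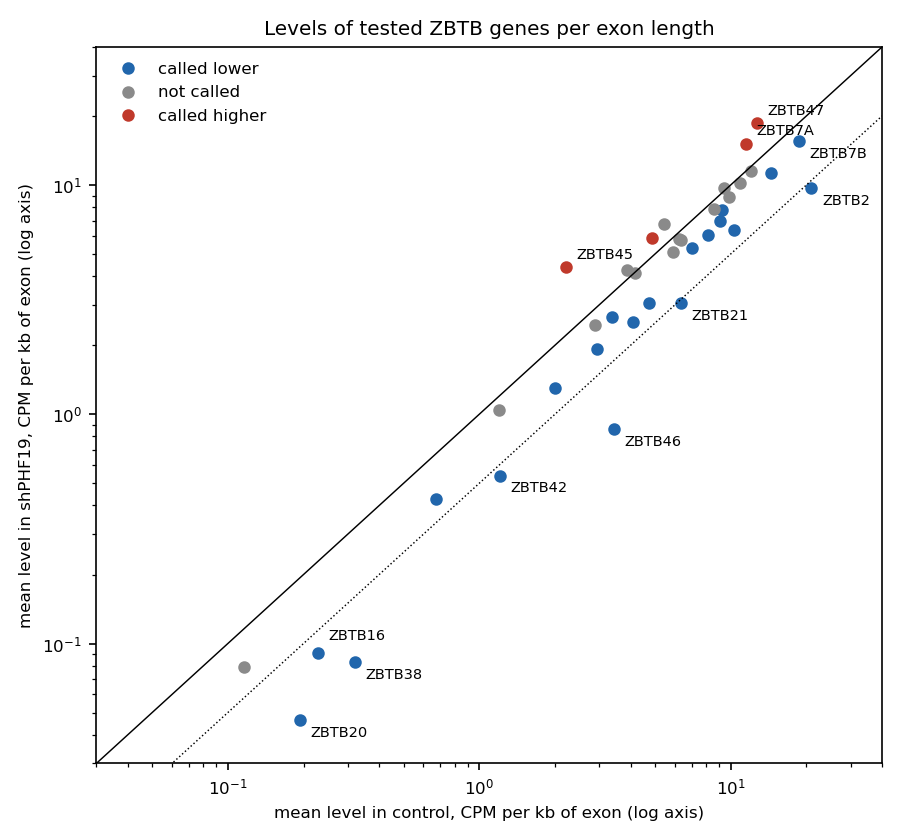
Mean level per kilobase of exon in control (x axis) and shPHF19 (y axis) libraries on log axes for the 38 tested ZBTB genes, with lines of equal level (solid) and of a 2-fold lower level (dotted). ZBTB46, ZBTB20, ZBTB38, ZBTB16, ZBTB42, ZBTB2 and ZBTB21 lie below the dotted line, and ZBTB45, ZBTB47 and ZBTB7A lie above the solid line.

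Zinc finger genes with a ZNF number symbol, a set that includes ZNF131 of the same protein family, were also more often lower than higher. Of 386 tested, 158 fell (40.9%) and 38 rose (9.84%), with a median log2 fold change of -0.28. Of 30 tested KLHL and KBTBD genes, which share the BTB domain but have kelch repeats in place of zinc fingers, 12 fell and 4 rose, with a median of -0.26. The ZBTB genes had 52.6% lower and 10.5% higher at a median of -0.30, beside 30.9% and 29.4% of all tested genes at -0.03. The differences between families were not tested.

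**Figure D4:**
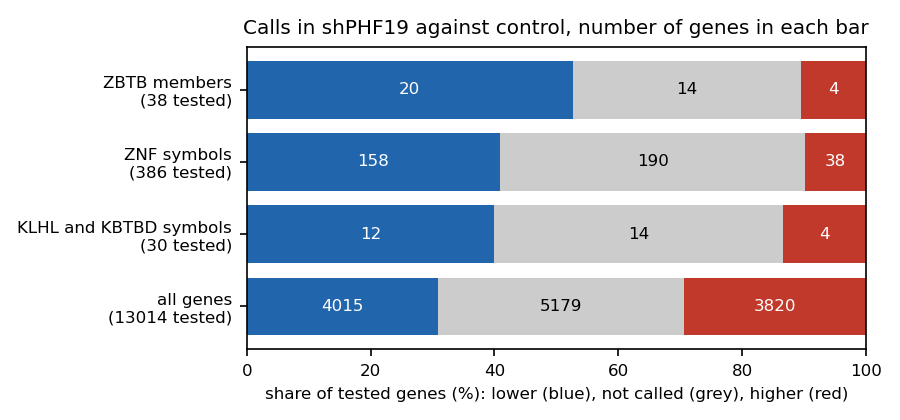
Share of tested genes (x axis, %) called lower (blue), not called (grey) and called higher (red) in shPHF19 against control, for ZBTB genes, ZNF genes, KLHL and KBTBD genes and all genes, with the number of genes in each bar. Of ZBTB genes 20 of 38 were lower and 4 higher, beside 4015 and 3820 of all 13014.

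Base composition moved with the fold changes of ZBTB genes. Over the 38 tested genes, log2 fold change and the GC content of the longest transcript had a Spearman rho of 0.41. Over all 12236 tested genes with a length it was 0.17. Merged exon length had a rho of -0.39, beside -0.12. Expression level, taken as the sum of both group means in CPM, had a rho of 0.40, beside 0.33. Over 384 ZNF genes the values were 0.35 for GC content, -0.15 for length and 0.19 for level, at a median GC content of 44.0%. The GC trend was thus not confined to ZBTB genes. These are descriptions across genes that share their libraries. Of the 19 ZBTB genes with less than the median GC content of 44.2%, 13 fell and 1 rose. Of the 19 richer in GC, 7 fell and 3 rose. Over all tested genes, whatever their GC content, 30.9% were called lower and 29.4% higher. Shares of all genes within these GC ranges were not computed, so these counts cannot be set against genes of like composition. After trends with length and GC were removed from each library, 14 genes were lower and 5 higher (limma-voom, adjusted p under 0.05), beside 26.2% lower and 40.4% higher among all genes under that correction, and 7 were past 2-fold, among which ZBTB45 (1.01) had taken the place of ZBTB21 (-0.77). The median of all genes moved to 0.11 under that correction and that of the ZBTB genes to -0.20.

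**Figure D5:**
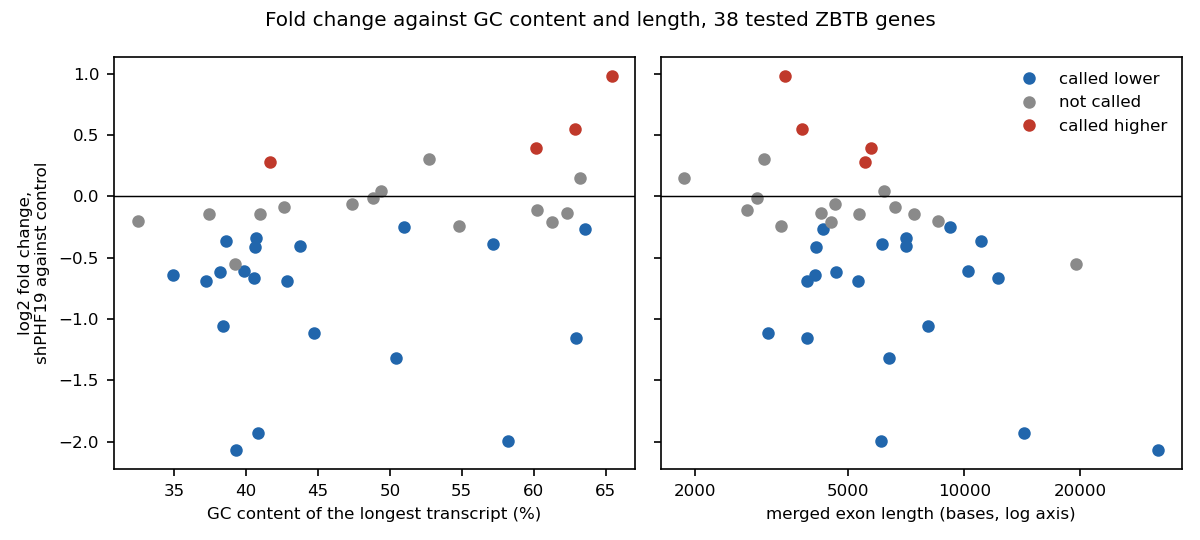
Log2 fold change (y axis, shPHF19 against control) against GC content of the longest transcript (left) and merged exon length (right, log axis) for the 38 tested ZBTB genes, coloured by call. Most genes called lower lie at the GC-poor end, where 13 of 19 fell, and ZBTB45, ZBTB47 and ZBTB7A lie at the GC-rich end. Of all tested genes, whatever their GC content, 30.9% were called lower.

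Of 8 genes of the same protein family that carry other symbols, 4 fell, 2 rose and 2 did not pass, with a median log2 fold change of -0.30. Among all tested genes 30.9% were called lower and 29.4% higher, with a median of -0.03. BCL6, the germinal centre B cell repressor, fell from 33.3 to 13.2 CPM on average (n = 3; -1.34, edgeR adjusted p = 6.59e-12). HIC1, a tumour suppressor repressor, fell from 3.23 to 0.920 CPM (-1.81, edgeR adjusted p = 0.000102), whereas its paralog HIC2 rose (0.57). MYNN (-0.64) and ZNF131 (-0.37) fell and PATZ1 (0.32) rose.

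Of 21 listed corepressors and partners of BTB domains, all tested, 10 fell, 4 rose and 7 did not pass, at a median of -0.20, beside 30.9% lower, 29.4% higher and 60.2% called in all among tested genes. NCOR1 (-0.99), the corepressor that gives its complex its name, fell. TBL1X (-0.94) and TBL1XR1 (-0.47), subunits of the NCOR complex, fell, as did BCOR (-0.49), a BCL6 corepressor, CTBP2 (-0.56), HDAC5 (-0.49) and HDAC7 (-0.34). CTBP1 (0.44), HDAC1 (0.54), HDAC3 (0.35), the catalytic subunit of the NCOR complex, and HDAC4 (0.48) rose. RUNX1T1 (-0.37) and its relatives CBFA2T2 (-0.31) and CBFA2T3 (-0.91), which also bind NCOR, fell. SIN3A (0.16), SIN3B (0.06) and CUL3 (-0.01), the ubiquitin ligase scaffold that binds some BTB proteins, did not pass.

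Of 11 listed targets reported for ZBTB factors 8 were tested, of which 3 rose, 3 fell and 2 did not pass, beside 60.2% of all tested genes called. Among glycolytic genes reported to be repressed by ZBTB7A, PFKP (1.37) and PKM (1.33) rose and the glucose transporter gene SLC2A3 (-1.12) fell. CDCA7, the ZBTB24 target, rose from a mean of 134 to 201 CPM (n = 3; 0.58, edgeR adjusted p = 7.06e-08). CDKN1A, a target of ZBTB17 with MYC, fell (-1.96), and so did ASNS (-1.12), an ATF4 target that depends on ZBTB1. MCM10 (0.20) and MTFP1 (0.18), a ZBTB48 target, did not pass. The globin genes HBG1 and HBG2 and the kinase inhibitor gene CDKN2B had too few counts to be tested.

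The authors' deposited table of their own comparison holds 5740 rows, beside 26410 rows in the count table. It lists 16 of the 41 genes, 13 of them lower and 3 higher, all with the sign found here. The same libraries underlie both comparisons, so the shared signs are no independent check. The largest adjusted p over all genes in the authors' table is 0.00993, and the 8 further ZBTB genes called here are not listed in it. In the authors' deposited table ZBTB46 has a log2 fold change of -1.95 and ZBTB45 of 0.96.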

How the data were processed

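The authors deposited whole-number counts per gene symbol for 6 RNA-seq libraries. The tools named are HTSeq 0.11.2 and HISAT2 2.1.0, with build hg38, per the submitters' processing notes. The sources used here do not state the annotation, strand setting or filters. A second deposited table holds the authors' comparison, with a mean normalized signal, log2 fold changes and p-values. Here the counts were filtered with filterByExpr, which left 13014 of 26410 rows, scaled by TMM and tested with edgeR 4.0.16 (R 4.3.3; glmQLFit and glmQLFTest, robust, group as the only term), with Benjamini-Hochberg adjustment over all genes tested and a threshold of 0.05. CPM used the same factors, and the SE is the fold change over the square root of F. Alternatives were DESeq2 1.42.0, other scalings and filters, a replicate block, leaving out each library, and limma-voom (limma 3.58.1) with and without trends of length and GC removed, the last 2 chosen after seeing the data. All 41 symbols were found in GENCODE 29 (GRCh38), the source of positions and exons. On simulated data (12851 genes) the fit recovered 82 of 98 genes changed 2-fold and 56 of 97 changed by 0.5 on the log2 scale. There were 6 false calls among 144. Few genes were changed in the simulation, balanced up and down, whereas 60.2% of tested genes were called in the real data. The simulated rates need not hold for the real data. The genes and lists were chosen with earlier results of these data known. Values per library are given for up to 6 of the largest rises and 6 of the largest falls among called ZBTB genes, for any past 2-fold, and for ZBTB7A, ZBTB16, ZBTB17, ZBTB33, ZBTB24 and ZBTB46. Other genes get a fold change or a level. No pair of replicates was as alike as sampling noise alone allows (chi-square per degree of freedom 4.63 to 11.7). Libraries held 14229878 to 16615143 counts, and counting intervals cover counting error only. Some results on single genes outside the ZBTB family are not reported here.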

Additional observations from a re-analysis of the deposited data

How the results depend on the processing

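Of the 24 ZBTB genes called, 14 kept their call and direction under all 15 alternatives (12 lower, 2 higher). The count called higher was 2 with library totals only, beside 19.9% of all tested genes. The difference in summed CPM was then -385 in place of -206. Leaving out 1 library gave 17 to 19 lower, 3 to 5 higher and 5 to 8 past 2-fold, and a summed difference of -211 to -190 CPM. Over all tested genes 27.2% to 29.7% were then called lower and 26% to 28.4% higher. Replicate numbers did not pair the libraries (correlations of deviations between same-numbered libraries -0.164, -0.00655 and -0.0537). With the number as a replicate block 19 ZBTB genes were lower, 3 higher and 7 past 2-fold, beside 28.8% lower and 27.3% higher among all tested genes. PHF19 stood at -2.32 with that block. The genes whose sign turned had no call with all libraries under the main settings. With library totals ZBTB12 stood at -0.060 and ZBTB39 at -0.17, and with upper-quartile factors ZBTB39 was at -0.064. With length and GC trends removed ZBTB11 (0.10), ZBTB33 (0.13), ZBTB34 (0.12), ZBTB41 (0.22), ZBTB49 (0.045) and ZBTB5 (0.026) were above 0. ZBTB49 was at 0.0046 with DESeq2 size factors, 0.012 with DESeq2 and 0.0097 with no filter. Without 1 library ZBTB49 ran from -0.10 to 0.089 and ZBTB5 from -0.13 to 0.0086. The cause of these turns was not tested. Genes with few counts, such as ZBTB16 and ZBTB37, had the widest intervals.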
